A study of Mus musculus with 4 samples.

Results

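Tubb3, Tubb2b, Tuba1a, Map2, Rbfox3, Stmn2, Pafah1b1, Cdk5r1, Mapt and Dab1 are genes of the neuronal cytoskeleton and of neuronal migration. They were chosen by name, as 10 of the 26433 genes in a table of RNA-seq read counts, and all 10 were found and passed the filter on low counts that left 15786 genes for testing. The RNA came from mouse embryos on embryonic day 15 (E15), when newborn neurons migrate into the cortical plate, and its source is called cerebral cortex in the labels and telencephalic tissue in the methods of the study. There were 2 libraries of conditional knock-in embryos (cKI f/+), named KI2 and KI3, and 2 libraries of wild-type (WT) embryos, named WT1 and WT3. The sample titles number the animals differently, so the genotype of KI3 and WT1 is known, and which titled sample each one is remains unknown. The comparison asks how expression of human SERPINA3 changes the RNA of the embryonic cortex.

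The cKI f/+ embryos carried human SERPINA3 with a 3×flag tag on 1 allele of the Rosa26 locus, driven by the CAG promoter behind a floxed STOP cassette, together with a Nestin-Cre transgene. Cre removes the cassette in Nestin-positive neural progenitors, and their progeny, including neurons, inherit the recombined allele. The labels give C57BL/6 as the strain of both groups, and the methods of the study describe founder animals bred with B6D2F2 mice. The WT embryos were littermate controls. Whether they carried Nestin-Cre alone is not stated in the sources used here. The human transgene was not analysed here.

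A neuron builds its leading process, axon and dendrites from microtubules, which are polymers of alpha- and beta-tubulin. Microtubule-associated proteins stabilize them, stathmins release tubulin from them, and the motor dynein with its regulator LIS1 pulls the nucleus along them during migration. CDK5 kinase and the reelin signal govern the course and the end of migration, and mutations of several of these genes disturb cortical layering or folding in humans and mice.

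Library depth was even: the cKI f/+ libraries held 17736663 (KI2) and 18119444 (KI3) counted reads, and the WT libraries 17615212 (WT1) and 17423512 (WT3). Values are given as CPM, counts scaled to library size, after TMM normalization, which corrects each library by a factor estimated from most genes. A level per kilobase is the CPM divided by the summed length of a gene's exons. At this depth, 3 counts correspond to 0.166 to 0.172 CPM, and such floors cover counting error only. The lowest of the 10 genes in any library, Rbfox3 in WT3, had 2601 reads, so counting error was small for each of them. The libraries of a group were not copies, since the chi-square per gene was 5.63 for the cKI f/+ pair and 7.49 for the WT pair.

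The tissue carried the marks of its label. Neurod6, of young cortical projection neurons, had 19480, 17466, 18998 and 19586 reads in KI2, KI3, WT1 and WT3 and was the highest per kilobase of the dorsal telencephalon markers. The hindbrain and midbrain markers En2 and Hoxb3 had at most 1 read in any library, and En1, Hoxa2 and Hoxb2 were not analysed here. The groups differed in sex-linked genes: KI2, KI3, WT1 and WT3 held 13223, 11882, 5 and 5 Xist reads and 0, 0, 951 and 918 reads of Kdm5d, a gene of chromosome Y. Genotype and sex therefore cannot be told apart in any comparison here. The libraries also differed in RNA of cells outside the cortical wall. The 4 choroid plexus markers summed to 8.68, 63.9, 1.53 and 3.96 CPM in KI2, KI3, WT1 and WT3, led by Ttr with 116, 956, 0 and 4 reads. The 5 meningeal markers summed to 20.1, 17.3, 6.97 and 9.12 CPM, led per kilobase by Col3a1. The 6 blood markers summed to 493, 366, 491 and 522 CPM, led by Hbb-bs. No choroid plexus, meningeal or blood marker was called by edgeR's quasi-likelihood test or by DESeq2, while edgeR's likelihood ratio test called 1 choroid plexus and 2 meningeal markers. At an unadjusted p under 0.05, 2 choroid plexus markers and 4 meningeal markers were higher and 3 blood markers lower in cKI f/+. The part of these cells in the results below was not tested.

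The 10 genes spanned a wide range of levels per kilobase, and the tubulins led. Tuba1a, the main alpha-tubulin of young neurons, had the highest level per kilobase, 3587, 3449, 3442 and 3799 CPM in KI2, KI3, WT1 and WT3. Tubb2b, a beta-tubulin of migrating neurons and their progenitors, followed with 1365, 1315, 1129 and 1253 CPM per kilobase. Tubb3, the beta-tubulin used most often as a neuronal marker, had 1024, 999.7, 952 and 1090. These 3 tubulins held the top 3 places in every library, and neither Tuba1a and Tubb2b nor Tubb2b and Tubb3 overlapped over the 4 libraries. They took 80.1%, 81.3%, 79.2% and 80.5% of the reads of the 10 genes in KI2, KI3, WT1 and WT3. By mean CPM in WT libraries, which does not correct for length, Tuba1a ranked 3, Tubb2b 8 and Tubb3 18 among the 15786 tested genes.

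The next levels lay about an order of magnitude lower. Cdk5r1, which encodes the p35 activator of CDK5, had a mean level of 96.8 CPM per kilobase over the 4 libraries. Mapt, which encodes tau, had 86.3, and Stmn2, a stathmin of growing axons, had 82.6. These 3 genes were neighbours whose ranges overlapped, since Cdk5r1 ran from 92.2 to 100.8, Mapt from 81.6 to 92.8 and Stmn2 from 73.8 to 94.3 CPM per kilobase. Map2, the dendritic microtubule-associated protein, had a mean of 38.9 and overlapped with neither neighbour. Pafah1b1, which encodes LIS1, had 28.0, and Rbfox3, which encodes the splicing factor known as NeuN, had 26.7, with ranges that overlapped. Dab1, the intracellular adaptor of the reelin receptors, was lowest with 22.6 CPM per kilobase on this scale. With the longest transcript in place of all exons, the mean level of Map2 became 102.1 and that of Stmn2 135.5 CPM per kilobase, and Cdk5r1 moved from place 4 to place 7. Pafah1b1 was then lowest with 31.4, and Dab1 had 33.8, while the 3 tubulins kept their places.

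**Figure D1:**
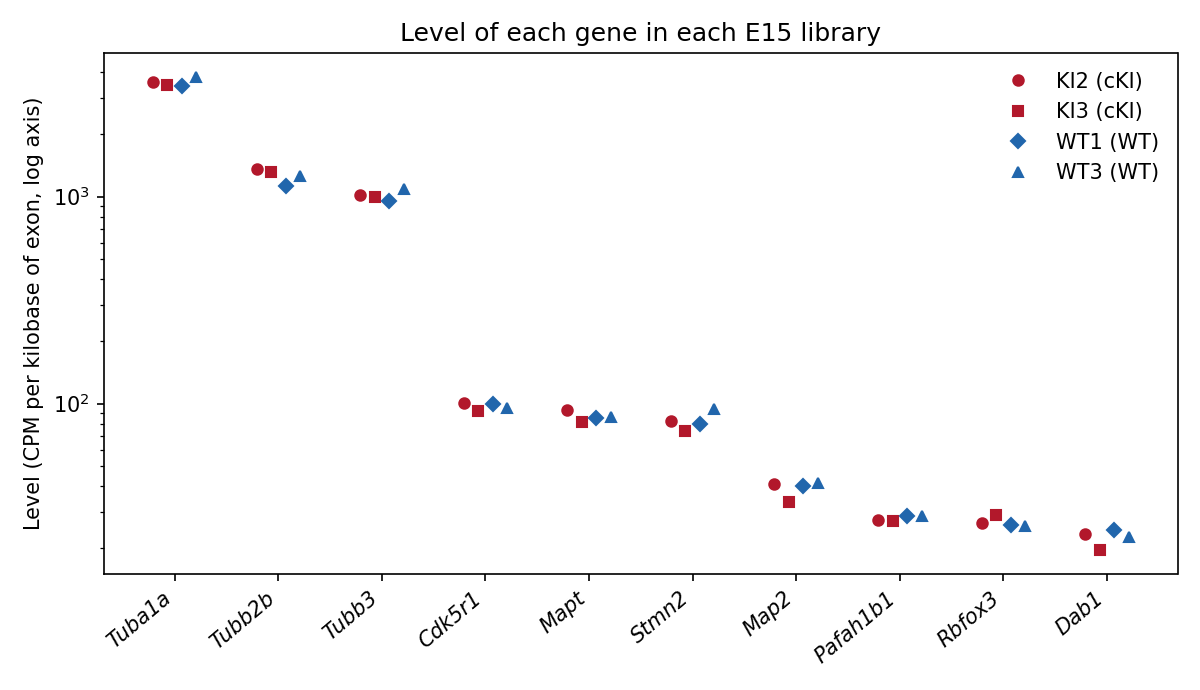
Level of the 10 genes in each library, in CPM per kilobase of exon on a log axis, with cKI libraries in red and WT libraries in blue. Tuba1a, Tubb2b and Tubb3 lie above the other 7 genes in all 4 libraries, and Cdk5r1, Mapt and Stmn2 overlap.

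Between cKI f/+ and WT, 0 of the 10 genes were called by edgeR's quasi-likelihood test at a Benjamini-Hochberg adjusted p under 0.05, where 0.12% of all tested genes were called. The count was also 0 with DESeq2 and with edgeR's likelihood ratio test. The 19 genes of the whole table called by the quasi-likelihood test included 5 sex-linked markers. At an unadjusted p under 0.05 there was 1 gene, Tubb2b, where 4.6% of all tested genes passed. The adjusted p ranged from 0.969 to 0.997 over the 10 genes. Their median log2 fold change was -0.027, with 3 genes above and 7 below 0, and that of all tested genes was 0.0043. The 95% intervals, each for a single gene, ran from -0.37 at the lower end for Stmn2 to 0.33 at the upper end for Tubb2b, on the log2 scale. They describe the difference between these cKI f/+ and WT libraries, in which genotype and sex cannot be told apart. The groups did not overlap for 3 of the 10 genes, Tubb2b and Rbfox3 higher and Pafah1b1 lower in cKI f/+, and did not overlap for 34.1% of all tested genes. In bulk tissue, fewer neurons and less RNA per neuron cannot be told apart. With 2 libraries against 2, the smallest p of a two-sided exact permutation test of 1 gene is 0.333, and the edgeR p-values draw on the spread of many genes.

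**Figure D2:**
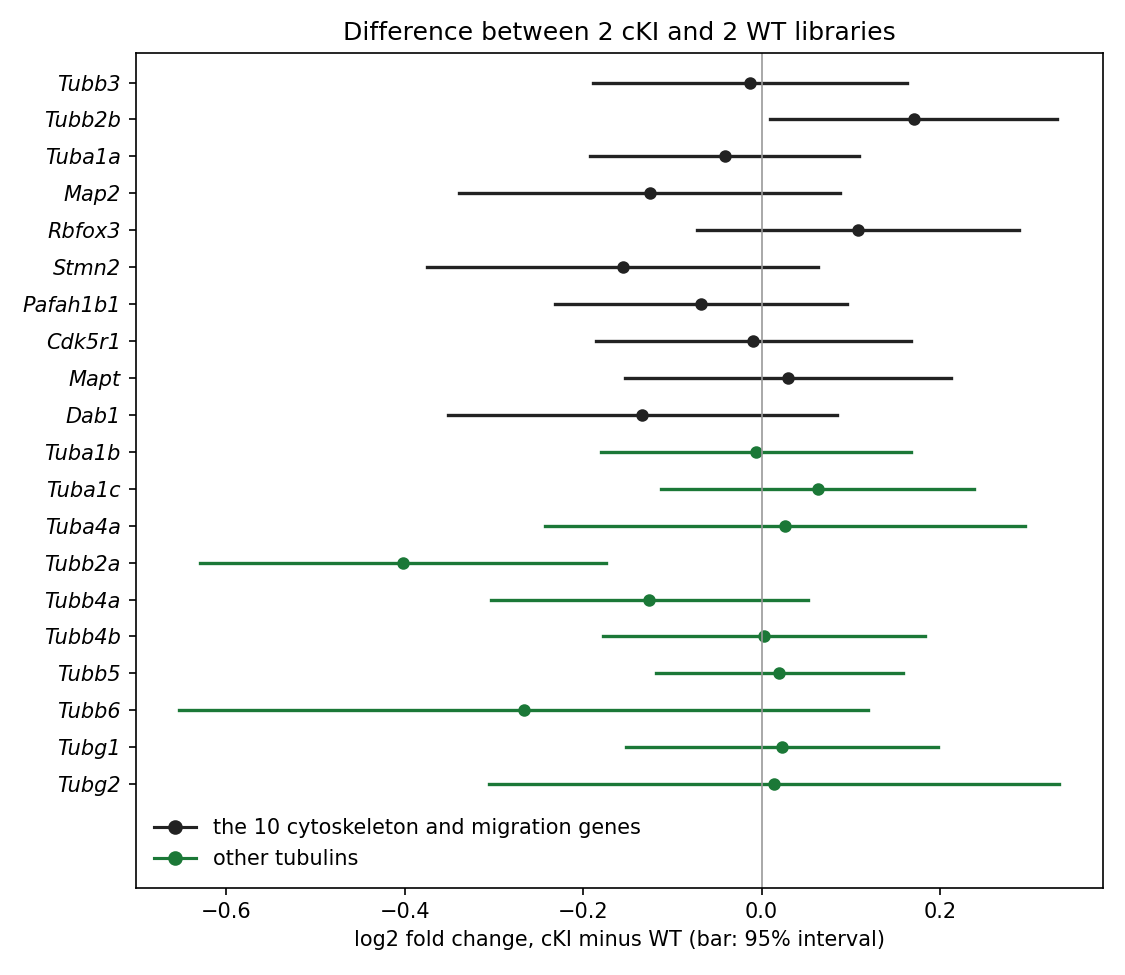
Log2 fold change between cKI and WT libraries (2 each) for the 10 genes in black and the other tubulins tested in green, with bars for the 95% interval of edgeR's quasi-likelihood fit. The intervals of Tubb2b and Tubb2a leave out 0, on opposite sides, and neither gene was called.

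Among the tubulins, Tubb2b (chromosome 13, 34126748 to 34130466, minus strand, GRCm38) gave the largest log2 fold change of the 10 genes in size in the main fit. Without WT1, Stmn2, Map2, Rbfox3, Tuba1a and Tubb3 were larger in size. Without KI2, Map2, Dab1, Stmn2 and Rbfox3 were larger, and with length trends removed Stmn2 was. Tubb2b had 3131 and 3016 CPM in KI2 and KI3 and 2589 and 2874 in WT1 and WT3. Both cKI f/+ libraries lay above both WT libraries, and the gap of the nearest pair, KI3 and WT3, was smaller than the gap between the WT libraries. The means were 3073 ± 81.7 CPM in cKI f/+ and 2731 ± 201 in WT (SD, n = 2 each). The log2 fold change was 0.17 with a standard error of 0.072 and a 95% interval of 0.0092 to 0.33, which is a ratio of 1.13 with bounds of 1.01 and 1.26. Its adjusted p was 0.969 by edgeR's quasi-likelihood test. Left-out libraries moved the log2 fold change between 0.098 without WT1 and 0.25 without WT3.

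Tuba1a (chromosome 15, 98949841 to 98953551, minus strand) had 6467 and 6219 CPM in KI2 and KI3 and 6207 and 6849 in WT1 and WT3. WT1 and WT3 enclosed both cKI f/+ values, so the spread within WT exceeded the difference of the means, a log2 fold change of -0.041 with a 95% interval of -0.19 to 0.11. Tubb3 (chromosome 8, 123411424 to 123422015, plus strand) had 1913 and 1867 CPM in KI2 and KI3 and 1778 and 2036 in WT1 and WT3. It showed the same arrangement, with both cKI f/+ libraries between the WT libraries. Its log2 fold change was -0.013 with a 95% interval of -0.19 to 0.16. The sign of both genes turned with the library left out: without WT3 the log2 fold change was 0.032 for Tuba1a and 0.089 for Tubb3, and without KI3 it was 0.00042 for Tubb3.

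Tubb2b has a close copy, Tubb2a, which lies 48740 bases away on the same strand of chromosome 13 (34074274 to 34078007). Tubb2a had 465 and 426 CPM in KI2 and KI3 and 530 and 647 in WT1 and WT3. Both cKI f/+ libraries were below both WT libraries, opposite to Tubb2b. The log2 fold change of Tubb2a was -0.40 with a standard error of 0.10 and a 95% interval of -0.63 to -0.17, at an unadjusted p of 0.003 and an adjusted p of 0.667 by edgeR's quasi-likelihood test. Tubb2a was called under 1 of 13 alternatives, without WT1, at an adjusted p of 0.0027, and the adjusted p ranged from 0.0027 to 0.9995 over them. The direction was the same in all 13, with log2 fold changes from -0.54 to -0.25.

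Taken as a ratio, there were 6.73 and 7.08 Tubb2b reads for each Tubb2a read in KI2 and KI3, and 4.88 and 4.44 in WT1 and WT3. The ratio does not depend on the scaling of the libraries. Its group means were 6.91 ± 0.248 in cKI f/+ and 4.66 ± 0.313 in WT (SD, n = 2 each), and the gap between the groups was several times the spread within either. The ratio was 1.48-fold higher in cKI f/+, a log2 difference of 0.57 that stayed between 0.50 and 0.64 with each library left out. The ratio was examined after the values of both genes were seen, and a two-sided exact permutation test gives 0.333, the smallest p for this design. The summed level of the pair differed less, with 3596 and 3442 CPM in KI2 and KI3 and 3119 and 3521 in WT1 and WT3, and the log2 fold change of the summed reads was 0.084 at an adjusted p of 0.976 by the same edgeR test. For comparison, the reads of Tuba1a for each read of Tuba1b were 8.48 and 7.31 in KI2 and KI3 and 7.72 and 8.38 in WT1 and WT3, and the groups overlapped. The reads of Tubb3 for each read of Tubb2b were 0.611 and 0.619 in KI2 and KI3 and 0.687 and 0.709 in WT1 and WT3. The groups did not overlap there either, and the log2 difference of that ratio was -0.18. Both ratios that separated the groups hold Tubb2b, whose own CPM separated them too, so they are not independent observations.

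**Figure D3:**
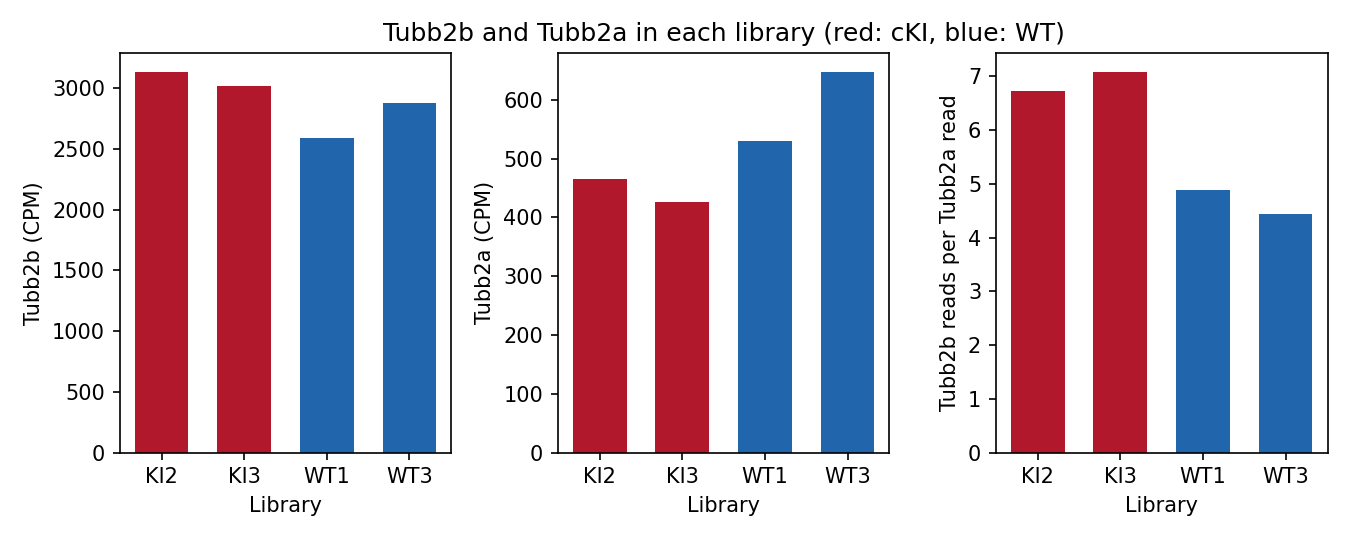
Tubb2b and Tubb2a in CPM and the number of Tubb2b reads for each Tubb2a read, as bars from 0 for each library, red for cKI and blue for WT. The ratio is 6.73 and 7.08 in the cKI libraries and 4.88 and 4.44 in the WT libraries.

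How reads were divided between such copies bears on these values. Of the 2272 different words of 50 bases in the annotated Tubb2b transcripts, 36.9% also occur in a transcript of another gene, and 31.3% in Tubb2a. Of the 1561 words of Tubb2a, 49.6% occur in another gene, and 45.6% in Tubb2b. In Tuba1a, 72.9% of 1754 words occur elsewhere, 46.9% in Tuba1c, 43.4% in Tuba1b and 46.6% in Gm17383, a gene with 1364, 1357, 1251 and 1462 reads that was picked after its values were seen. Tubb3, Map2, Rbfox3, Cdk5r1, Mapt and Dab1 share 0 words of that length with any other gene. Stmn2 shares 0.875% and Pafah1b1 0.952%. In Tuba1b, 66.7% of words occur in another gene, and in Tuba1c 52.7%. The levels of Tuba1a, Tuba1b, Tuba1c, Tubb2b and Tubb2a are therefore uncertain where reads could fall on either copy. The same holds for the ratios above that use these genes. How the authors' counting treated such reads is not given in the sources used here.

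The coding sequences of Tubb2b and Tubb2a are each 1338 bases long and differ at 47 of them, with an identical run of 551 bases. Within the coding sequence only these bases tell the genes apart, and a stretch of 90 coding bases in the last exon is shown for this reason. It is read from GENCODE M21 transcripts on the minus strand of chromosome 13 in GRCm38, 5′ to 3′, with the bases that differ between the genes in capitals. Positions 1249 to 1338, at chr13:34127471-34127560 in Tubb2b and chr13:34074468-34074557 in Tubb2a, are the end of the coding sequence with the stop codon. They hold 3 differing bases, which is 3.33% of the stretch, against 3.51% of the whole coding sequence:
Tubb2b: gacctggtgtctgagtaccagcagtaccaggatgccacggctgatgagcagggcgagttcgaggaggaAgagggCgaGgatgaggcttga
Tubb2a: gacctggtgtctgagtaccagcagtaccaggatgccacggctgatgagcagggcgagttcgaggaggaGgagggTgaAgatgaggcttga

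Of the other tubulins, none was called. Tubb5, a beta-tubulin of progenitors and neurons, had a mean of 1268 CPM per kilobase, close to the 1265 of Tubb2b, and 4156, 4335, 4136 and 4241 CPM in KI2, KI3, WT1 and WT3. Its groups overlapped, and its log2 fold change was 0.020. Tuba1b, at -0.0066, and Tuba1c, at 0.063, overlapped too. Tubb4a and Tubb6 were lower in both cKI f/+ libraries than in both WT libraries, with log2 fold changes of -0.13 and -0.27 whose 95% intervals held 0, and Tubb4b had a log2 fold change of 0.0029. Over 13 tubulin genes tested, 0 were called, the median log2 fold change was 0.0029 and the groups did not overlap for 4, a share close to the 34.1% of all tested genes. Tuba8 was not analysed here.

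The microtubule-associated proteins Map2 and Mapt both had their lowest value in KI3. Map2 (chromosome 1, 66175273 to 66442583, plus strand) had 669.9 and 553 CPM in KI2 and KI3 and 655 and 679 in WT1 and WT3. KI3 stood apart from the other 3 libraries, which lay close together. The log2 fold change of Map2 was -0.13 with a 95% interval of -0.34 to 0.088, and it was 0.0020 without KI3 and -0.28 without KI2. Mapt (chromosome 11, 104231390 to 104332090, plus strand) had 699 and 615 CPM in KI2 and KI3 and 640.3 and 646 in WT1 and WT3. The cKI f/+ libraries enclosed both WT libraries, and the log2 fold change was 0.030 with a 95% interval of -0.15 to 0.21, or -0.075 without KI2. Of 15 microtubule-associated proteins tested, 0 were called and 7 lay above 0. Map1b, with a log2 fold change of 0.049, was the highest per kilobase of summed exons. With the longest transcript as length, Mapt was the highest. Map1s had the smallest unadjusted p, 0.055, by edgeR's quasi-likelihood test, at a log2 fold change of 0.16. Dcx, which encodes doublecortin of migrating neurons, had 822, 743, 873 and 846 CPM in KI2, KI3, WT1 and WT3, and its groups did not overlap. Its log2 fold change of -0.13 had a 95% interval of -0.31 to 0.037.

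Stmn2 (chromosome 3, 8509360 to 8561606, plus strand) had 462 and 413 CPM in KI2 and KI3 and 446 and 528 in WT1 and WT3. WT3 was the highest and WT1 lay between the cKI f/+ libraries. The log2 fold change of -0.16, the lowest of the 10 genes in the main fit, had a 95% interval of -0.37 to 0.064. It ranged from -0.27 without WT1 to -0.028 without WT3. Without KI2, Map2 and Dab1 were lower than Stmn2, and without WT3, Dab1, Map2, Pafah1b1 and Cdk5r1 were. Among 10 stathmins and severing enzymes, 0 were called. Stmn1, the stathmin of progenitors and young neurons, was the highest per kilobase at 739 CPM and had a log2 fold change of 0.054. Fign, a severing enzyme with 9, 23, 35 and 47 reads in KI2, KI3, WT1 and WT3, had the smallest unadjusted p of this list, 0.010, at an adjusted p of 0.969 by edgeR's quasi-likelihood test.

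Pafah1b1 (chromosome 11, 74673949 to 74724670, minus strand) varied least within groups. It had 263.1 and 262.2 CPM in KI2 and KI3 and 274 and 276 in WT1 and WT3. The groups did not overlap, yet the difference was small, with means of 263 ± 0.576 and 275 ± 1.34 CPM (SD, n = 2 each), a ratio of 0.954 with bounds of 0.852 and 1.07. The interval is far wider than these SDs because edgeR shares the spread of many genes with each gene. All alternatives gave a log2 fold change below 0, from -0.081 to -0.030. Nde1 and Ndel1, which bind LIS1 and dynein, had log2 fold changes of 0.014 and 0.0083. Of 14 genes of LIS1 and dynein, 0 were called, and their median on the log2 scale was 0.011. Dynll1 had the smallest unadjusted p, 0.165, by edgeR's quasi-likelihood test. Dynll2 had the highest level per kilobase of summed exons, and Pafah1b3 had it, narrowly, with the longest transcript as length.

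Cdk5r1 (chromosome 11, 80477023 to 80481184, plus strand) had 419 and 384 CPM in KI2 and KI3 and 413 and 395 in WT1 and WT3. The cKI f/+ libraries enclosed the WT libraries, and the log2 fold change of -0.0093 had a 95% interval of -0.19 to 0.17. The kinase itself, Cdk5, had a log2 fold change of -0.026, and Cdk5r2, which encodes the related activator p39, had 393, 455, 268 and 408 reads in KI2, KI3, WT1 and WT3, with groups that overlapped. Of 8 genes of the CDK5 pathway, 0 were called, and Pak1 had the smallest unadjusted p, 0.093.

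Dab1 (chromosome 4, 103619359 to 104744844, plus strand) had 185 and 156 CPM in KI2 and KI3 and 194 and 180.1 in WT1 and WT3. KI3 was again the lowest, and KI2 lay between the WT libraries. The log2 fold change of -0.13 had a 95% interval of -0.35 to 0.084 and was -0.018 without KI3 and -0.27 without KI2. Reln, which encodes the reelin ligand, had 406, 245, 297 and 259 CPM in KI2, KI3, WT1 and WT3, so KI2 stood above the rest and the other cKI f/+ library was the lowest of all. The reelin receptors Vldlr and Lrp8 had log2 fold changes of -0.028 and -0.022. Of 15 reelin pathway genes, 0 were called, and their median on the log2 scale was -0.028. Rap1b had the smallest unadjusted p, 0.114, by edgeR's quasi-likelihood test. Rnf7 had the highest level per kilobase of summed exons, and Fyn had it with the longest transcript as length.

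Rbfox3 (chromosome 11, 118489762 to 118911597, minus strand) had 154 and 169 CPM in KI2 and KI3 and 150.2 and 149 in WT1 and WT3. Both cKI f/+ libraries lay above both WT libraries, KI2 only slightly, and the log2 fold change of 0.11 had a 95% interval of -0.073 to 0.29, and it was 0.033 without KI3 and 0.16 without KI2. It was the only one of the 10 genes with its highest value in KI3, the library in which 6 of the 10 had their lowest. Rbfox1, a related splicing factor, went the other way in KI3, with 89.8, 67.0, 89.3 and 92.8 CPM in KI2, KI3, WT1 and WT3, and Rbfox2 had a log2 fold change of -0.0036. Elavl4, an RNA-binding protein of neurons, had 101 and 99.8 CPM in KI2 and KI3 and 119 and 123 in WT1 and WT3. Its log2 fold change of -0.27 had a 95% interval of -0.44 to -0.11 and an adjusted p of 0.777 by edgeR's quasi-likelihood test. Of 8 neuronal RNA-binding proteins, 0 were called.

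The remaining lists gave 0 called genes as well. They held 12 genes of neurofilaments and the growth cone, with Basp1 the highest per kilobase and Prph at the smallest unadjusted p, 0.112, and 11 other radial migration genes, with Rnd2 the highest per kilobase and Rnd3 at the smallest unadjusted p, 0.044. Over all lists, 96 related genes other than the 10 were tested. None was called by edgeR's quasi-likelihood test or by DESeq2, 49 lay above and 47 below 0, and their median log2 fold change was 0.0011. At an unadjusted p under 0.05 there were 5, Tubb2a, Fign, Spast, Elavl4 and Rnd3, each lower in cKI f/+, where 4.6% of all tested genes passed in either direction. Spast was named after its values were seen.

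The 10 genes did not vary as a block across libraries. WT3 held the highest value of 5 genes, KI2 of 3, and KI3 and WT1 of 1 each. KI3 held the lowest value of 6 genes, Map2, Stmn2, Pafah1b1, Cdk5r1, Mapt and Dab1, with 4162 to 16449 bases of exon. WT1 held the lowest value of 3, the tubulins Tubb3, Tubb2b and Tuba1a, with 1803 to 2294 bases. WT3 held that of 1, Rbfox3, with 5818 bases. This split was noted after the values were seen, and its cause was not tested. For 8 of the 10, the larger difference within a group exceeded the difference between the group means on the log2 scale, and for Tubb2b and Pafah1b1 it did not. The same held for 77.8% of all tested genes. Differences between libraries also varied with exon length, a comparison made after the data were seen. The median log2 difference of WT1 minus WT3 was -0.0996 over 2480 genes with under 2000 bases of exon and 0.089 over 2569 genes with at least 8000. For KI2 minus KI3 the medians were -0.021 and 0.07, and for cKI f/+ minus WT 0.049 and -0.040. Single genes did not always follow these medians. Tuba1a and Tubb3, with 1803 and 1868 bases, had log2 differences of -0.14 and -0.20 for WT1 minus WT3, on the side of the short genes, but 0.056 and 0.035 for KI2 minus KI3, on the other side. Map2, with 16449 bases, had 0.28 for KI2 minus KI3, on the side of the long genes, and -0.051 for WT1 minus WT3, on the other side. With each library's trend against exon length removed, 0 of the 10 genes were called. The log2 fold changes moved toward 0 for Map2 (-0.072), Dab1 (-0.11), Stmn2 (-0.15), Pafah1b1 (-0.030) and Tubb2b (0.15). They moved away from 0 for Tubb3 (-0.042), Tuba1a (-0.072), Mapt (0.052), Rbfox3 (0.12) and Cdk5r1 (-0.010).

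In position and annotation the 10 genes shared some features. Rbfox3, Pafah1b1, Cdk5r1 and Mapt lie on chromosome 11, which holds 7.76% of all tested genes, and the other 6 lie on 6 different chromosomes, none of them X or Y. In the gene ontology terms listed with the counts, 9 of the 10, all except Rbfox3, have a term with the word microtubule, as do 4.72% of tested genes. Terms with the words neuron migration were listed for Pafah1b1, Dab1 and Cdk5r1, and for 0.805% of tested genes. The genes were chosen for these functions, so the shares describe the choice.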

How the data were processed

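Cortical RNA of 4 E15 embryos was sequenced on an Illumina HiSeq instrument. What the authors deposited are raw counts of reads on each gene, and the submitters' processing notes name Bowtie2 2.2.3, TopHat2 2.0.12, HTSeq 0.6.0 and the build mm9. The gene positions in the deposited count table are nevertheless those of GRCm38: 24485 of 26433 genes, and 9 of the 10 described, have the same position in GENCODE M21, and Tuba1a differs at its ends. Strand and multi-mapping settings are not given in the sources used here. The table's own comparison columns (a mean signal, fold changes and p-values made by the authors) were not used.

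From the counts, R 4.3.3 and edgeR 4.0.16 gave all values (filterByExpr, TMM, quasi-likelihood test, Benjamini-Hochberg over 15786 genes, threshold 0.05), tested beforehand on simulated data. The biological coefficient of variation was 8.72%. Standard errors are the log2 fold change divided by the square root of F. Exon lengths and transcripts came from GENCODE M21. Alternatives were DESeq2 1.42.0, the likelihood ratio test, other normalizations, filters and thresholds, removal of chromosomes X and Y, each library left out, tubulin copies summed, and the longest transcript as length. The removal of length trends, the Tubb2b to Tubb2a ratio and the alternatives for Tubb2a were added after seeing the data. The genes and lists were chosen with earlier results of these data known. Named genes are the 10, tubulin copies, cell type markers, direct partners, and in each list the called genes, the smallest unadjusted p and the highest level per kilobase. Markers of radial glia, intermediate progenitors, proliferation, ventral telencephalon, endothelium, microglia and glia gave 0 called genes by edgeR or DESeq2, and at an unadjusted p under 0.05 gave 2 ventral telencephalon markers, 1 higher and 1 lower in cKI f/+, and 1 microglia marker, lower. A few results for single items are not reported here.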

Additional observations from a re-analysis of the deposited data

How the results depend on the processing

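Of 132 refits of the 10 genes' log2 fold changes, 125 kept the sign and the side of the threshold and 7 turned the sign, for 5 genes and only with 1 library left out, where the lone library of a group is assumed to vary like the other group. With each library left out, Tubb3 ranged from -0.11 to 0.089 (0.00042 without KI3), Tuba1a from -0.11 to 0.032, Map2 from -0.28 to 0.0020, Cdk5r1 from -0.085 to 0.049 (0.023 without WT1) and Mapt from -0.075 to 0.11. Why single libraries turn these signs was not tested. The 19 called genes of the whole table became 11 once chromosomes X and Y were removed, 6 where every library had to hold 10 counts or more, 54 with the likelihood ratio test, 726 at an unadjusted p under 0.05, and 46 to 71 with 1 library left out, and the cause was not tested beyond the smaller number of genes or libraries in some of these. The 10 genes gave 0 calls in every alternative except the unadjusted threshold, which gave 1. The related lists, the 10 included, gave 0 calls except 6 at the unadjusted threshold and 0 to 1 with 1 library left out. The longest transcript as length moved the level per kilobase of 6 of the 10 genes by more than the SD over the 4 libraries. No paired analysis was made. The sample titles of the 2 groups share no number, while the library names KI3 and WT3 do. Which libraries came from the same litter is not given in the sources used here.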
